A study of Mus musculus with 14 samples.

Results

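The genes described here are the developmental homeobox genes that lie outside the Hox clusters. They were chosen by name, as every symbol in the deposited files that begins with Dlx, Lhx, Nkx, Pax, Otx, Msx, Meis, Pbx, Irx, Barx, Emx, Pitx, Prrx, Vax, Gsx, Esx, Alx, Tlx, Onecut, Cux, Tgif or the prefix shared by Six2 and Six4, followed by a digit, leaving out Pax4, Pax6 and Nkx2-2. The rule found 94 symbols among 29634, of which 82 are the genes themselves and 12 are antisense, overlapping or pseudogene symbols that share a gene's name. Of the 94, 87 were listed in the bulk libraries, 88 in a single-cell matrix and 81 in both.

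Mouse intestinal organoids, which are cultures of gut epithelium that grow from its stem cells, were treated with the small molecule Isx-9 or with its solvent DMSO. Stem cells sorted from organoids with an Lgr5-EGFP knock-in were profiled by bulk RNA-seq after 6 hours of Isx-9 (2 libraries) or DMSO (2 libraries). Whole organoids that carry a Chgb-mCherry reporter, also knocked in, were profiled by single-cell RNA-seq after 6 days of 25 µM Isx-9, after 6 days of 0.05% DMSO, and untreated, with untreated wild-type organoids as a further control (1 library each). The treatments began 2 days after passaging in ENR medium, and the labels do not say whether libraries of a group came from separate cultures. Both knock-ins are carried by the Isx-9 and the DMSO samples of their own comparison alike, and the organoids hold epithelium without the gut's mesenchyme, nerves or vessels.

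Homeobox genes encode transcription factors that bind DNA through a homeodomain and set positional and cell type identity in the embryo. The families named here pattern tissues as far apart as limb, forebrain, kidney, heart and placenta, and many are best known from the embryo. Of the TALE families (Meis, Pbx, Irx, Tgif), Meis and Pbx act largely as partners of other homeodomain proteins. LIM-homeodomain proteins (Lhx) work with Ldb cofactors, and SINE proteins such as Six2 with Eya cofactors.

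The promoter windows of 4 of these genes are printed because they stand for the patterns described below. They run from 250 bases before to 50 bases after the transcription start, are taken from RefSeq (GRCm38.p6), and are written 5′ to 3′ on the gene's strand with every CG dinucleotide in capitals. Esx1 (chrX:137120277-137120576, minus strand) and Barx1 (chr13:48662786-48663085, plus strand) had no count in the DMSO stem cells. The Esx1 window lies inside the gene as annotated (chrX:137115397-137122131), so it is not at the gene's outermost start. Lhx1 (chr11:84525485-84525784, minus strand) was present in DMSO cells of the enteroendocrine lineage, and its window shares 225 bases with that of Lhx1os, which starts head to head with it. Pax8 (chr2:24475550-24475849, minus strand) was the 1 gene at least 2-fold lower with Isx-9 in whole organoids.
Esx1: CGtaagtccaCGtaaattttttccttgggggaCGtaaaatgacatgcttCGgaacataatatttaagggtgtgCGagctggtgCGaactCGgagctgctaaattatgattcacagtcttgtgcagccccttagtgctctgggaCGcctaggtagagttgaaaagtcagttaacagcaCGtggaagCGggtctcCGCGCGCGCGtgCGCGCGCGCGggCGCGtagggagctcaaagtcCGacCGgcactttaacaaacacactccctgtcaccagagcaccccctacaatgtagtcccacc
Barx1: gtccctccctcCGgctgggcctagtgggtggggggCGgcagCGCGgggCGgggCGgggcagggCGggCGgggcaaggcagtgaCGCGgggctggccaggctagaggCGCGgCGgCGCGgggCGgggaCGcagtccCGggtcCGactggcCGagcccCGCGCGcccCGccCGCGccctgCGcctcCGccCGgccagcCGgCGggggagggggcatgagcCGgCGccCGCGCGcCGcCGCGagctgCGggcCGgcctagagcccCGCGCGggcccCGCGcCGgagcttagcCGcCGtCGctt
Lhx1: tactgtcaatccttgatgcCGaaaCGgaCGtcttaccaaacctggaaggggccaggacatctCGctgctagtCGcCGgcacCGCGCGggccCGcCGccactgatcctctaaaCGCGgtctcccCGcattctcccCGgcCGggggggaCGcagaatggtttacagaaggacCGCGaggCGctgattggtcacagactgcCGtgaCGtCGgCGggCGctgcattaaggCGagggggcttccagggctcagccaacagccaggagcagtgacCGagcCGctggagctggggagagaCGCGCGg
Pax8: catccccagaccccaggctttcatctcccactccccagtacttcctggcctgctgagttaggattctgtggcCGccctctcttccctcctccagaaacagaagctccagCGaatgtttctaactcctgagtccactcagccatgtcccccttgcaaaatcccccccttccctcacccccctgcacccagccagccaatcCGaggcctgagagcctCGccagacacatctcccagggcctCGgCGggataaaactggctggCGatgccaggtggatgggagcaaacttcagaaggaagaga
The windows hold 24, 50, 31 and 7 CG dinucleotides for Esx1, Barx1, Lhx1 and Pax8, against a median of 7 over all 32851 windows of the table.

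The bulk libraries held 19025875 and 19431905 counts with Isx-9 and 19487264 and 18909542 with DMSO, and a count for 23881 and 23695 genes with Isx-9 against 21237 and 20942 with DMSO. Lgr5, the receptor that marks these stem cells, had 6266 and 6424 counts with Isx-9 and 7017 and 6182 with DMSO and made no call (edgeR adjusted p = 0.072). Of 10 tested stem cell markers, 7 were lower with Isx-9, Olfm4 and Ascl2 among them, and 1 was higher, and their summed level was 7836 and 6565 CPM (counts scaled to a common library size, with TMM factors) in the Isx-9 libraries and 10189 and 10071 CPM in the DMSO libraries. Of 12 proliferation markers, 7 were lower and 0 higher, with sums of 3015 and 2880 CPM with Isx-9 and 3522 and 3417 CPM with DMSO. Marker lists of other cell types moved with the treatment too. The summed level of 14 mesenchymal markers was 70.8 and 47.6 CPM in the Isx-9 libraries and 9.41 and 10.0 CPM in the DMSO libraries, with 7 of 8 tested markers higher and Dcn and Lum at 0 counts in both Isx-9 libraries. That of 12 neuronal and glial markers was 104 and 80.6 CPM with Isx-9 and 6.83 and 8.92 CPM with DMSO, with 8 of 10 tested markers higher and 1 marker at 0 in both Isx-9 libraries. That of 6 endothelial markers was 28.9 and 30.1 CPM with Isx-9 and 14.9 and 14.2 CPM with DMSO. All 4 tested endothelial markers were higher, and Cdh5 was at 0 in both Isx-9 libraries. The 8 immune markers summed to 22.6 and 28.2 CPM with Isx-9 and 37.3 and 31.5 CPM with DMSO. Of 4 tested immune markers 0 were higher and 1 was lower, and Ptprc was among the 2 at 0 in both Isx-9 libraries. The part of such cells, and of the lower stem cell and proliferation markers, in the results below was not tested.

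After 6 hours of Isx-9, far more of the homeobox genes were detected in the sorted stem cells than with DMSO. Both Isx-9 libraries had a count for 79 of the 94 genes, against 35 in both DMSO libraries. The mean reached 1 CPM for 51 genes with Isx-9 against 18 with DMSO. Over the whole table, too, more genes had a count with Isx-9 (23881 and 23695) than with DMSO (21237 and 20942). The same shares over all genes were not computed, so these counts are not read as particular to the homeobox genes. The 1 listed gene without a count in either Isx-9 library was the ParaHox gene Gsx1, with 0 and 0 counts with Isx-9 and 0 and 4 with DMSO. In bulk RNA, more cells with a transcript and more transcript per cell cannot be told apart. Of 57 genes with counts enough to test, 41 rose and 1 fell (edgeR quasi-likelihood test, Benjamini-Hochberg adjusted p under 0.05 over all 17418 genes tested), where 27.3% of all tested genes rose and 20% fell. In each of the 41 that rose, both Isx-9 libraries lay above both DMSO libraries, which largely follows from the call itself. Over all tested genes, called or not, this held for 38.8%, so the shares are not compared. A gene without DMSO counts is tested only if Isx-9 raised it, so these counts are not read as a share, and the genes are described by their DMSO counts instead.

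Genes without a read under DMSO were detected across several families. Among the 36 homeobox genes with 0 counts in both DMSO libraries, 31 had a count in both Isx-9 libraries, 14 were called higher and 22 had too few counts to test. For the 31 no share over all genes was computed. Isx-9 brought 11 of the 36, or 30.6%, to 1 CPM or more on average, against 8.48% of the 4270 genes of the whole table without a DMSO count. The call of higher was made for 38.9% of the 36, against 10.8% of those 4270.

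Esx1 (ENSMUSG00000023443, chrX:137115397-137122131), an X-linked gene of placenta and testis, had 345 and 297 counts with Isx-9 and 0 and 0 with DMSO. Both Isx-9 libraries were high and close to each other, at 15.98 ± 1.67 CPM (SD, n = 2), so that Esx1 was at least 196-fold higher than a floor of 3 counts over the DMSO group (edgeR quasi-likelihood, adjusted p = 5.25e-07). Barx1 (ENSMUSG00000021381, chr13:48663036-48666507), which patterns the mesenchyme of the embryonic stomach, had 81 and 38 counts with Isx-9 and 0 and 0 with DMSO, at least 36.3-fold higher. Relative to its mean, Barx1 was more uneven between the 2 Isx-9 libraries than Esx1, at 2.96 ± 1.51 CPM (SD, n = 2).

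Genes known from liver, brain, tooth and skin development showed the same pattern. Onecut1, a regulator of liver and pancreas, had 59 and 39 counts with Isx-9 and 0 and 0 with DMSO (at least 29.9-fold higher). The forebrain gene Emx1 had 43 and 40, and Pax9, which acts in teeth and thymus, had 43 and 32 with Isx-9, both with 0 and 0 with DMSO. Any Isx-9 count stands above 0 and 0 with DMSO, and the counts are low. Msx2, a BMP-responsive gene of skull and skin, had 45 and 24 counts with Isx-9, and Irx5, a gene of heart and retina, 38 and 26, against 0 and 0 with DMSO (at least 21.0-fold and 19.5-fold higher). Dlx3, Tlx3, Nkx2-4, Nkx1-1 and Lhx4 were also among the 14, with lower bounds between 6.40-fold for Lhx4 and 15.2-fold for Dlx3.

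The 22 genes of this kind that the filter on low counts kept out of the test were seen at a handful of reads. Pax1 reached 32 and 10 counts with Isx-9, and Pax3 had 3 and 22, each with 0 and 0 with DMSO, so 1 Isx-9 library of each held most of the reads. Pax2, a kidney and eye gene, had 14 and 8 counts, and Tlx2, which acts in enteric neurons, 7 and 8, against 0 and 0 with DMSO. Lhx8, Nkx3-2, Pax7, Nkx2-1 and Six3os1 had counts in 1 of the Isx-9 libraries only. In the authors' deposited table, which gives most of them a p, Pax1 (adjusted p = 0.0023), Lhx1os (0.012), Dlx5 (0.013), Pax3 (0.025) and Pax2 (0.031) were higher. Without the filter on low counts, Pax1, Lhx1os and Dlx5 were called higher in edgeR too.

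A second set of genes had a few DMSO reads. Of 31 genes with DMSO counts that stayed under 10 in at least 1 library, 21 rose, 2 made no call and 8 could not be tested. Of the 8309 such genes in the table, 17.1% rose and 0 fell. Every call at such low DMSO counts was thus a rise, and the 21 are not read as a share. Meis3 (chr7:16174012-16186510), a TALE factor of the hindbrain, had 339 and 285 counts with Isx-9 and 15 and 6 with DMSO. Its mean of 15.5 ± 1.88 CPM with Isx-9 stood far above 0.569 ± 0.337 CPM with DMSO (SD, n = 2 each), a log2 fold change of 4.75 (SE 0.36, edgeR adjusted p = 2.0e-06). Onecut3 (chr10:80494906-80517266), a relative of Onecut1, had 221 and 250 counts with Isx-9 and 6 and 6 with DMSO (log2 fold change 5.14, SE 0.36).

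Lhx1 (ENSMUSG00000018698, chr11:84517975-84525534), a LIM-homeodomain gene of head and kidney, had 96 and 96 counts with Isx-9 and 9 and 11 with DMSO. The libraries within each treatment were close, and the log2 fold change was 3.12 (SE 0.44, edgeR adjusted p = 0.00018). Lhx1os, the antisense neighbour, had 8 and 21 counts with Isx-9 and 0 and 0 with DMSO and was not tested. The library kit does not mark the strand, so reads of overlapping sense and antisense genes cannot be told apart. The muscle gene Six4 (log2 fold change 4.83), the tooth and palate gene Msx1 (3.40), the interneuron gene Lhx6 (5.10), the heart gene Irx4 (4.00) and the brain genes Otx1 (4.81) and Lhx2 (4.40) also rose.

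For genes with 1 to 3 DMSO counts in all, the ratio of counts carries a wide interval. The ratio was 72.3 for Msx3 (95% interval 24.4 to 353), 60.7 for Irx2 (20.5 to 297), 52.6 for Six2, a gene of nephron progenitors (14.2 to 440), and 50.6 for Nkx6-1, known from pancreatic beta cells (17.0 to 248). It was 84.2 for Lhx5 and 63.1 for Alx4, each with 1 DMSO read, and 43.0 for Meis1 and 39.3 for Six3, likewise. The call for Meis1 and Six3 was lost without Isx-9 replicate 1 (adjusted p = 0.052 and 0.066, edgeR). Lhx9 and Lhx3 made no call. For Lhx9, 1 DMSO library (11 counts, 0.606 CPM) lay above both Isx-9 libraries (0.348 and 0.598 CPM). For Lhx3, 1 DMSO library (24 counts, 1.29 CPM) lay between the Isx-9 libraries (1.34 and 1.15 CPM).

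Prrx1, a gene of limb and skull mesenchyme, rose on uneven controls. It had 59 and 77 counts with Isx-9 and 1 and 14 with DMSO, and its log2 fold change of 3.03 (SE 0.71, edgeR adjusted p = 0.0047) ranged between 2.12 and 5.81 when 1 library was left out. The summed mesenchymal markers given above were also higher with Isx-9, with Dcn and Lum at 0.

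The genes that stem cells expressed under DMSO moved less. Of 20 genes with at least 10 counts in both DMSO libraries, 6 rose, 1 fell and 13 made no call, against 19.4% and 23.5% of the 14820 such genes in the table. Their median log2 fold change was 0.02, against -0.08 over the 14798 of those genes that were tested.

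Cux2 (ENSMUSG00000042589, chr5:121857962-122050415), a gene of upper-layer cortical neurons, had the largest rise of the 20. It had 883 and 712 counts with Isx-9 and 59 and 76 with DMSO, or 39.7 ± 5.98 CPM against 3.68 ± 0.715 CPM (SD, n = 2 each), a log2 fold change of 3.43 (SE 0.19, edgeR adjusted p = 2.7e-07). Its relative Cux1 made no call, at 2528 and 2608 counts with Isx-9 and 2064 and 2027 with DMSO (log2 fold change 0.20, adjusted p = 0.051, edgeR). Under library size scaling alone and under DESeq2 size factors Cux1 was called higher (adjusted p = 0.0040 and 0.036).

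The TALE genes expressed under DMSO split by gene. Pbx4 rose (log2 fold change 2.86, SE 0.43), as did Meis2 (1.37, SE 0.27) and Pbx3 (0.75, SE 0.15, adjusted p = 0.0015, edgeR). Pbx3 had 516 and 476 counts with Isx-9 and 282 and 257 with DMSO, so the groups did not overlap. Pbx2 (log2 fold change -0.16) and the SMAD corepressors Tgif1 (-0.17) and Tgif2 (-0.14) made no call. Irx3, of the Iroquois branch, rose by 2.92 on the log2 scale (SE 0.42), and Barx2, a relative of Barx1, by 1.10 (SE 0.15).

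The count of homeobox genes that fell was 0 in place of 1 under library size scaling, when DMSO replicate 1 was left out and when Isx-9 replicate 1 was. Pitx1, a gene of hindlimb development, had 571 and 659 counts with Isx-9 and 602 and 596 with DMSO and made no call, and neither did Onecut2, with 3404 and 3765 counts with Isx-9 and 2984 and 3413 with DMSO.

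**Figure D1:**
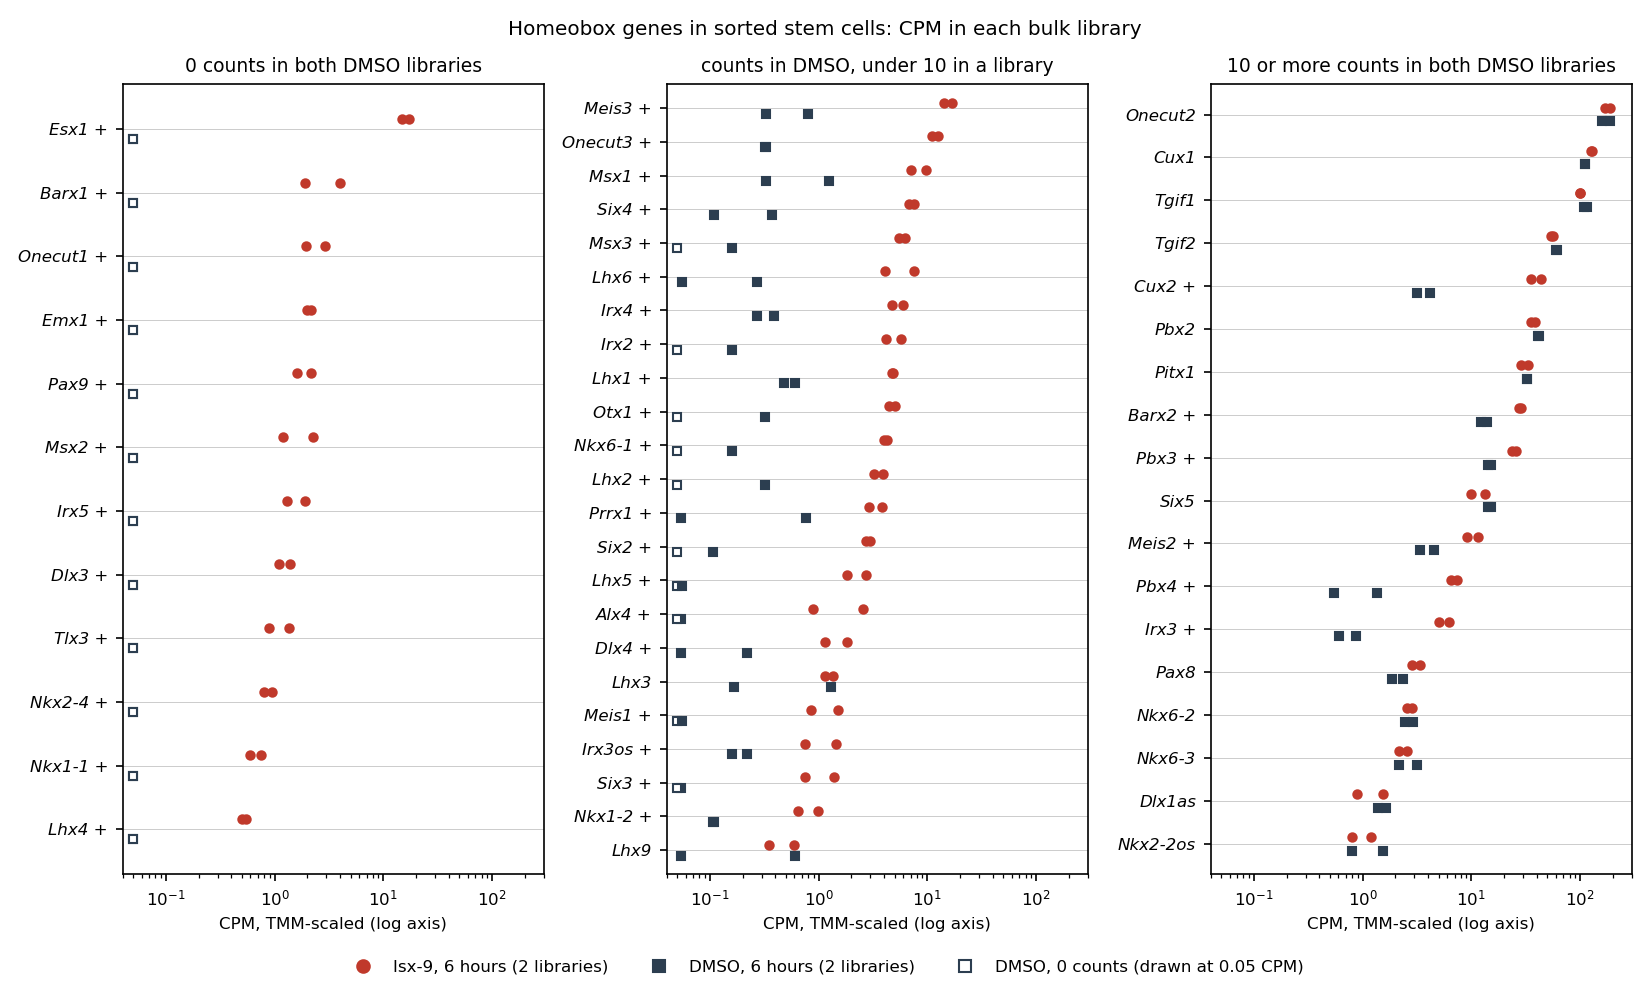
TMM-scaled CPM (log axis) of 53 tested homeobox genes in each of the 2 Isx-9 (circles, upper) and 2 DMSO (squares, lower) bulk libraries, in 3 panels by DMSO counts. A plus marks a gene that rose, and open squares are DMSO libraries with 0 counts. The Isx-9 circles of Esx1, at 15.98 ± 1.67 CPM, stand apart from open squares, and those of Onecut2, Tgif1 and Pbx2 lie beside filled ones.

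By family, the rises were spread. Of the NK-like genes (Nkx, Dlx, Msx, Barx, Emx, Vax, Tlx), 14 rose of 16 tested and 30 in all. In the TALE group, 9 rose of 13 tested and 15 in all. The LIM genes rose in 5 of 7 tested, the SINE genes in 4 of 5, and the CUT genes (Cux, Onecut) in 3 of 5. The paired-like genes (Otx, Pitx, Prrx, Alx, Esx) had 4 rises and 1 fall among 6 tested. Only 2 of the 7 Pax genes could be tested, of which Pax9 rose and Pax8 made no call. Among the 12 antisense and pseudogene symbols, Irx3os rose of 3 tested. The tested genes are those with counts, so these shares cannot be compared between families. In the authors' deposited table, 44 of the 79 homeobox genes with an adjusted p were higher and 1 lower at the same threshold. That table rests on the same bulk libraries. The share over all its genes was not computed, so these counts are not read as particular to the homeobox genes.

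After 6 days, the single-cell libraries of whole organoids showed the same contrast in detection. A matrix lists a gene only if at least 3 barcodes hold it. The Isx-9 matrix listed 88 of the 94 genes, against 38 in the DMSO, 42 in the untreated reporter and 45 in the untreated wild-type matrix, and 38 genes were listed with Isx-9 and in no other library. There were 50 genes listed with Isx-9 and not with DMSO and 0 the other way, where 14.2% of the 20429 genes in either matrix were listed with Isx-9 and not with DMSO and 1.79% the other way. The Isx-9 library was not the deeper one, with 112762457 UMIs (unique molecular identifiers, counts of molecules) in 10016 kept cells and a median of 9374 per cell, against 127088170 UMIs in 8969 DMSO cells and a median of 13388. Each condition is 1 library, so ratios carry intervals for counting error only and no test. At least 1 CPM (here UMIs summed over cells and scaled to a common library size) was reached by 42 genes with Isx-9, 19 with DMSO, 18 in untreated reporter and 17 in untreated wild-type organoids. No share over all genes was computed for this level, so it is not read as particular to the homeobox genes.

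With at least 20 UMIs over the Isx-9 and DMSO libraries, 70 genes could be compared. At least 2-fold higher with Isx-9 were 57, at least 2-fold lower was 1, and 12 lay between, where 35.9% of 17415 genes were that much higher and 4.93% that much lower. A gene not listed with DMSO was set to 3 UMIs there for this count, and it reached 20 UMIs only through Isx-9. Its call of higher was thus fixed in advance, here and in the other lists compared at 6 days. These counts are therefore not read as a share. Lhx3 passed the 2-fold mark on 16 UMIs with Isx-9 and 9 with DMSO, with an interval of 0.834 to 5.14 that includes 1. Whole-organoid marker sums also differed, with 14 mesenchymal markers at 381 CPM with Isx-9 and 35.3 CPM with DMSO, 12 neuronal and glial markers at 281 and 13.9 CPM, and 28 enteroendocrine markers at 14018 and 2697 CPM in the same order. Their part in the ratios was not tested.

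Several of the genes with 0 or 1 count over both DMSO stem cell libraries were detected in whole organoids with Isx-9. Barx1 had 1059 UMIs with Isx-9, or 9.39 CPM (95% interval 8.83 to 9.97), was not listed with DMSO or in untreated reporter organoids, and had 3 UMIs in untreated wild-type organoids. Esx1 had 522 UMIs (4.63 CPM, interval 4.24 to 5.04) with Isx-9 and was listed in none of the other 3 libraries. Irx5 (387 UMIs with Isx-9), Pax2 (273) and Six3 (318), which had 1 count in DMSO stem cells, were likewise listed with Isx-9 only. Tlx2 (chr6:83068325-83070225) had 418 UMIs, or 3.71 CPM, with Isx-9 and was not listed elsewhere, although the bulk Isx-9 libraries had held 7 and 8 counts of it. Meis1, a blood stem cell gene that also had 1 count in DMSO stem cells, had 429 UMIs with Isx-9, was not listed with DMSO, and had 2 and 3 UMIs in the untreated reporter and wild-type libraries.

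Genes with some DMSO signal gave ratios with narrower intervals. Lhx1 stood at 24.0 CPM with Isx-9 and 1.86 CPM with DMSO, a ratio of 12.9 (95% interval 11.3 to 14.8), with 2.25 and 1.48 CPM in untreated reporter and wild-type organoids. Lhx1os followed it at 27.8 CPM with Isx-9 and 1.62 CPM with DMSO (ratio 17.2). Meis3 had 19.9 CPM with Isx-9 and 0.748 CPM with DMSO (ratio 26.7, interval 21.7 to 33.1). Lhx1os stood at 1.63 and 0.766 CPM in untreated reporter and wild-type organoids, and Meis3 at 0.831 and 1.47 CPM. The ratio was 24.2 for Cux2, 18.6 for Onecut3, 11.8 for Msx1, 30.5 for Irx2, 48.3 for Irx3, 42.7 for Lhx5 and 116 for Msx3, the last on 3 DMSO UMIs (interval 39.4 to 566).

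Genes with more UMIs under DMSO had smaller ratios. Cux1 had 83.4 CPM with Isx-9 and 45.0 CPM with DMSO (ratio 1.85). Onecut2 had 124 CPM with Isx-9, 108 CPM with DMSO and 119 CPM in untreated reporter organoids, and 59.6 CPM in untreated wild-type organoids. For Onecut2 the gap between the untreated reporter and wild-type libraries was thus wider than the gap between Isx-9 and DMSO. Tgif1 (ratio 1.06), Tgif2 (1.28), Pbx2 (1.39), Pitx1 (1.27), Six5 (1.23), Barx2 (1.02) and Nkx6-3 (0.868) stayed within 2-fold.

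Pax8 (ENSMUSG00000026976, chr2:24420551-24475599), the thyroid and kidney member of the Pax genes, went the other way. It had 158 UMIs with Isx-9 and 491 with DMSO, or 1.40 CPM and 3.86 CPM, a ratio of 0.363 (95% interval 0.301 to 0.435). The untreated reporter and wild-type libraries, at 3.87 and 4.94 CPM, lay with DMSO. In the stem cells at 6 hours Pax8 had shown no call, at 68 and 57 counts with Isx-9 and 44 and 34 with DMSO.

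**Figure D2:**
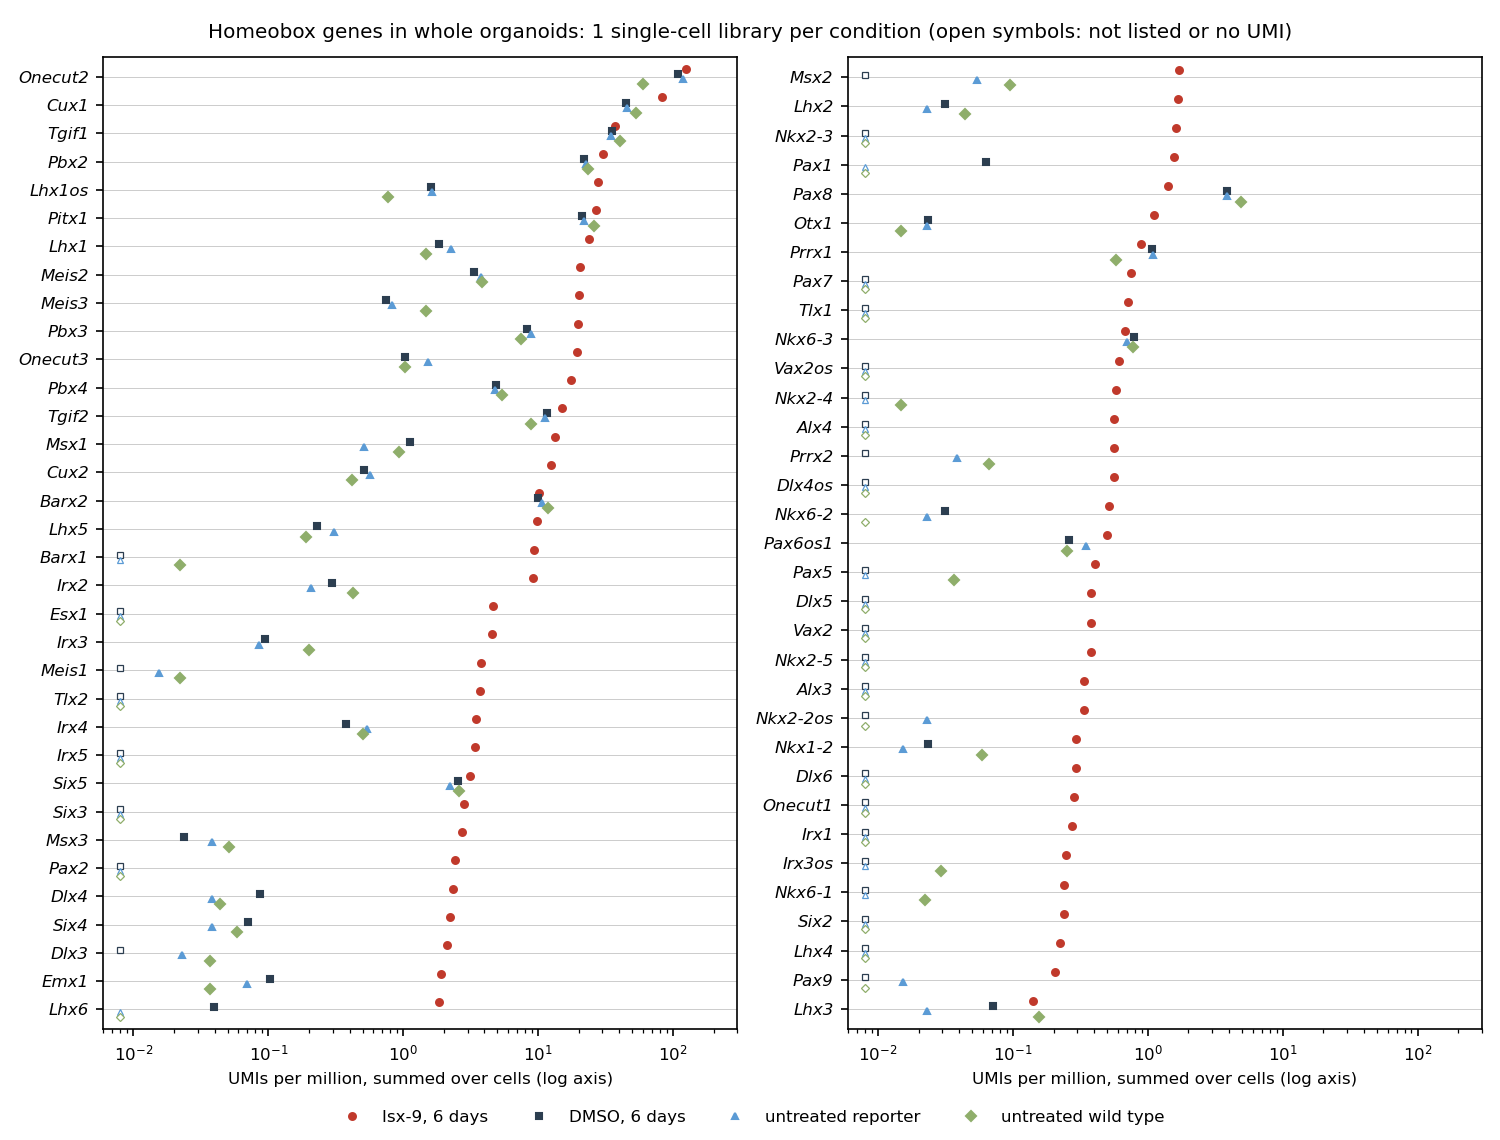
CPM from UMIs summed over cells (log axis) of 67 homeobox genes with at least 20 UMIs, in the Isx-9, DMSO, untreated reporter and untreated wild-type single-cell libraries (1 library each, symbols from top to bottom in each row). Open symbols at the left edge are genes not listed or without a UMI. The Isx-9 circle lies right of the other symbols for most genes, and left of them for Pax8, at 1.40 CPM.

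Of the 41 genes that rose at 6 hours, 36 were at least 2-fold higher at 6 days, which is 87.8% of the 41 and 63.2% of the 57 higher at 6 days. Over all genes, 66.3% of the 4754 symbols that rose at 6 hours were at least 2-fold higher at 6 days, and 50.4% of the 6251 higher at 6 days had risen at 6 hours. Of the other 5, 3 had fewer than 20 UMIs at 6 days, Tlx3 and Nkx1-1 among them, and Barx2 and Prrx1 stayed within 2-fold. Barx2 had 10.2 CPM with Isx-9 and 10.0 CPM with DMSO at 6 days (interval of the ratio 0.942 to 1.11), and Prrx1 0.896 and 1.08 CPM in the same order (0.636 to 1.08). Another 15 genes higher at 6 days had been too low to test at 6 hours, among them Tlx2, Pax2, Pax1, Nkx2-3 and Pax7. There were 4 genes higher at 6 days that made no call at 6 hours, among them Nkx6-2, Nkx2-2os and Lhx3. Esx1 is an example of a gene well seen at both times, with 345 and 297 counts in the Isx-9 stem cells and 522 UMIs in the Isx-9 organoids. The 2 comparisons differ in time, cells, genotype and assay together, which cannot be told apart.

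**Figure D3:**
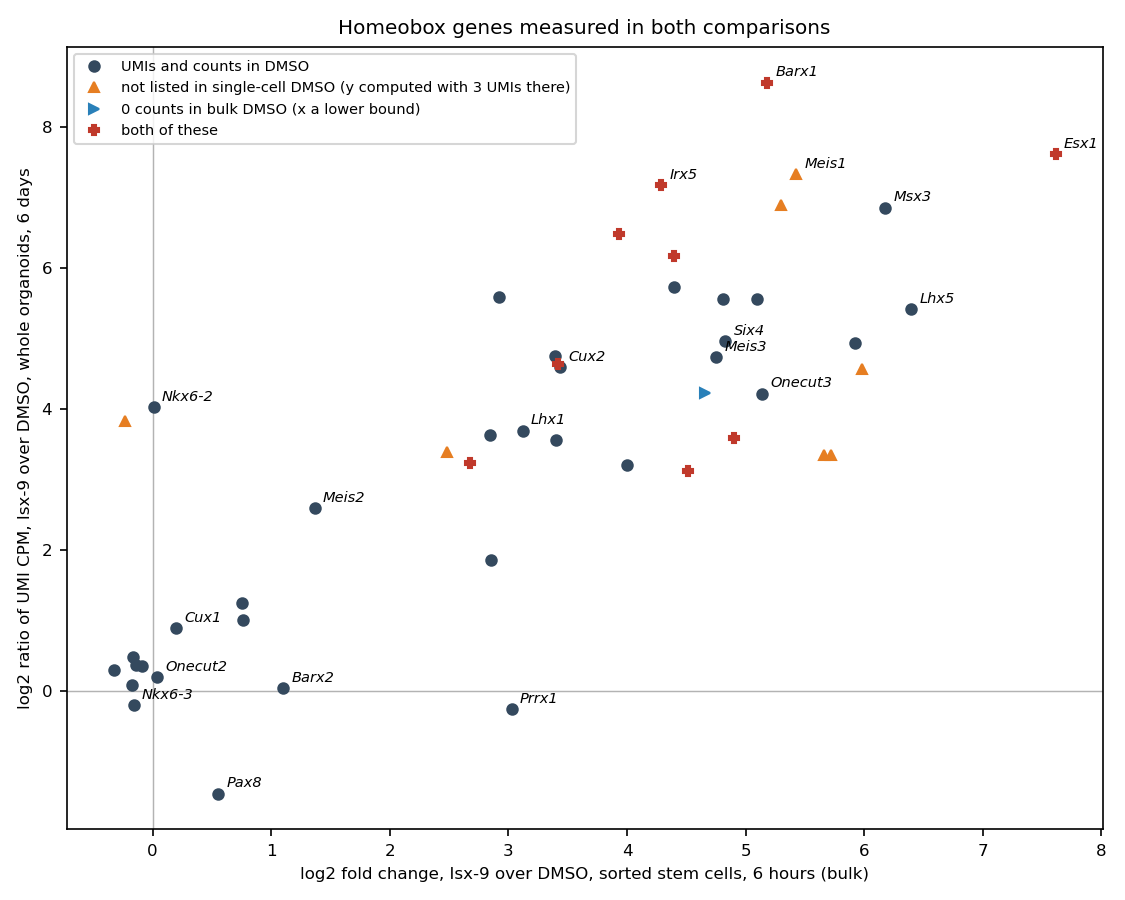
Log2 fold change of Isx-9 over DMSO in sorted stem cells at 6 hours (x axis) and log2 ratio of UMI CPM in whole organoids at 6 days (y axis) for 49 homeobox genes tested in bulk and with at least 20 UMIs. For 0 counts in bulk DMSO the x value is a lower bound, for 1 to 3 counts there it is the ratio of counts, and genes not listed in single-cell DMSO are drawn with 3 UMIs there. Most points lie up and to the right, and Pax8 (0.55 on the x axis), Prrx1 (3.03) and Barx2 (1.10) lie near or below 0 on the y axis.

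Isx-9 cells formed groups of their own, since 97.5% of them fell in 6 clusters (0, 1, 2, 3, 4 and 8) that held 4 cells of the other 3 libraries, with the homeobox genes left out of the genes used for clustering. No batch correction was used, and with 1 library per condition library and treatment cannot be told apart here. Untreated libraries also split, as clusters 15 and 20 held 17.0% and 9.86% of wild-type cells. In untreated reporter organoids they held 2.11% and 0.562%. Cluster 3 (4156 Isx-9 cells) is enteroendocrine-like, meaning like the hormone-secreting cells of the gut, with Pcsk1n and Chgb among its leading genes, beside genes such as Stmn2, Stmn3 and Gria2 that are best known from neurons. The others are called by number, cluster 0 led by Gif and Myl9, cluster 1 by Ly6c1 and Krt17, cluster 4 by Gm8773 and Kirrel2, and cluster 8 by Tubb6 and histone genes. Cluster 2 was led by Ifitm1 and Neurog3, and 77.6% of its cells were called doublets, so it is not interpreted.

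The homeobox genes did not share a single pattern across these clusters. Of 69 genes with at least 20 UMIs in Isx-9 cells, 36 were highest in cluster 3, where 48.5% of all 16777 such genes were, 13 in cluster 1, 12 in cluster 4, 6 in cluster 8, 1 in cluster 0 and 1 in cluster 2. The ratio of cluster 3 to the other 5 clusters had an interval above 1 for 44 genes and below 1 for 11, as it had for 62% and 21.9% of those 16777, so the counts of homeobox genes lay near the background. Tlx2 was the most confined of the genes with 100 or more UMIs, at 10.7 CPM in cluster 3 and a ratio of 11.7 to the rest (95% interval 9.08 to 15.3). Msx1 stood at 35.3 CPM in cluster 3 and 2.50 CPM in cluster 0 (ratio to the rest 7.82), Onecut3 at 50.2 and 5.19 CPM (6.98), and Six3 at 7.40 and 0.286 CPM (7.11). Lhx1 was high in clusters 3 (60.1 CPM) and 4 (57.2 CPM) and low in the others apart from cluster 2, at 1.32 to 2.02 CPM. Cux2, in contrast, lay between 10.2 and 16.3 CPM in all 6 clusters.

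A smaller set was low in the enteroendocrine-like cells. Esx1 stood at 0.284 CPM in cluster 3 and 6.43, 9.40 and 9.90 CPM in clusters 0, 1 and 8 (ratio of cluster 3 to the rest 0.044, interval 0.020 to 0.085). Msx3 (ratio 0.165), Msx2 (0.264), Pax8 (0.138), Tgif1 (0.425) and Barx2 (0.472) were also below the rest there. Irx4 was highest in cluster 4, at 18.8 CPM against 5.20 CPM in cluster 3 and 1.19 CPM in cluster 0. Lhx2 peaked in cluster 8 at 6.33 CPM. Barx1 was present in all 6 clusters, between 3.33 CPM in cluster 4 and 19.1 CPM in cluster 1.

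**Figure D4:**
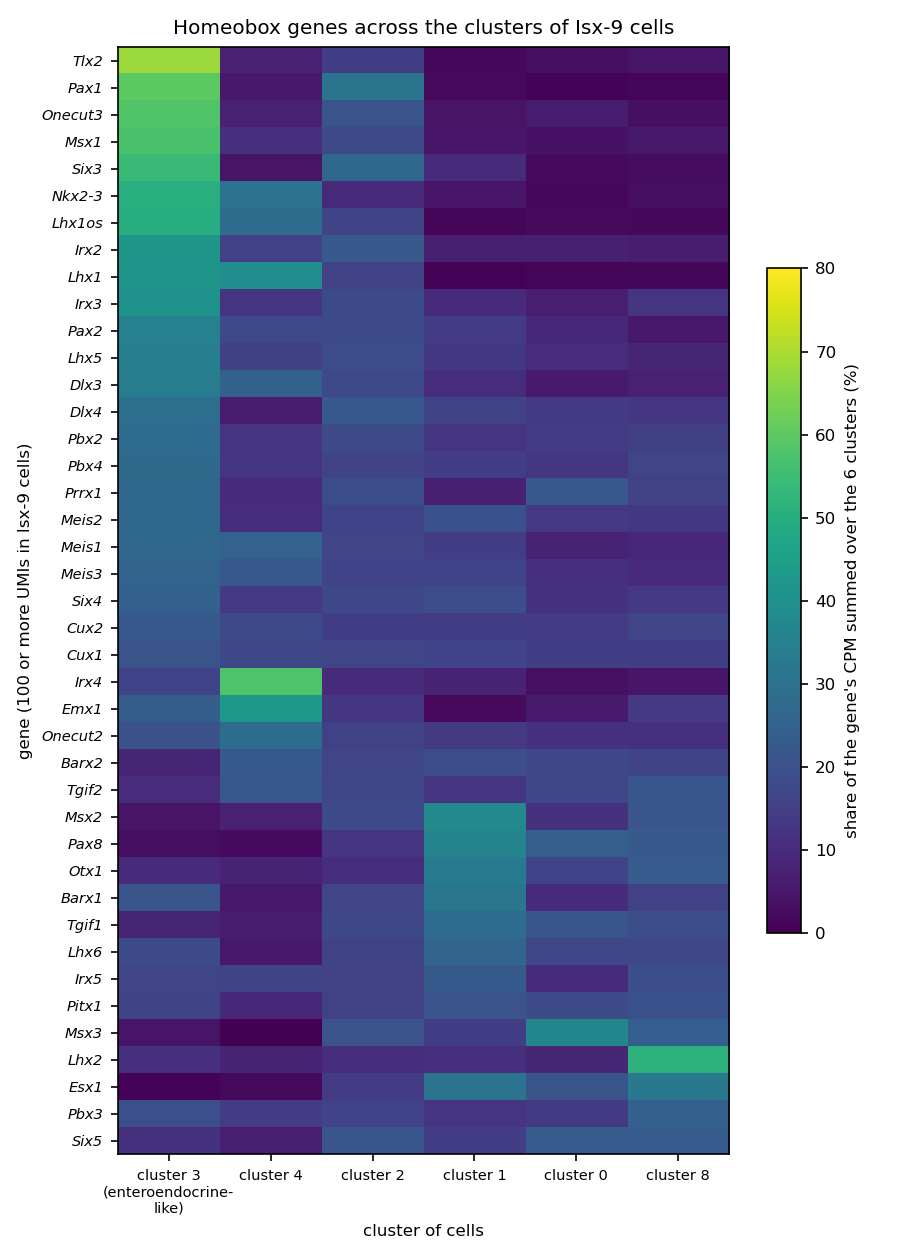
Share of each gene's CPM (percent, colour) across the 6 clusters that hold Isx-9 cells (columns), for 41 homeobox genes with at least 100 UMIs in Isx-9 cells (rows). Tlx2, Onecut3 and Msx1 are brightest in the enteroendocrine-like cluster 3, Irx4 in cluster 4, Msx2 in cluster 1, Msx3 in cluster 0 and Lhx2 in cluster 8, while Cux1 and Cux2 are even.

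Some of these genes already marked enteroendocrine-like cells without Isx-9. Those cells are clusters 13 (led by Gcg, Ghrl and Pyy) and 16 (with Tph1), with 442 and 188 cells in the DMSO library. Of 26 homeobox genes with at least 20 UMIs in each of the 3 libraries without Isx-9, 10 were at least 2-fold higher in these clusters than in the other cells of all 3 libraries, where 18% of the 14035 genes with as many UMIs were. The clusters themselves were built from other genes, so this share holds genes that formed them. Pax6os1 is counted among the 10 although the other cells of both untreated libraries held no UMI of it. Lhx1 stood at 36.5 CPM in DMSO enteroendocrine-like cells and 0.124 CPM in the other DMSO cells. For Onecut3 the levels were 18.5 and 0.165 CPM, for Msx1 21.0 and 0.132 CPM and for Meis3 8.76 and 0.347 CPM, in the same order. Lhx1os, Irx2, Lhx5 and Pbx4 were also among the 10, while Pax8, at 1.32 CPM in enteroendocrine-like and 3.99 CPM in the other DMSO cells, was at most 0.5 times as high there in all 3 libraries, as were 6.51% of the 14035 genes.

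Set beside these, cluster 3 of the Isx-9 library had 60.1 CPM of Lhx1, 50.2 of Onecut3, 35.3 of Msx1 and 30.9 of Meis3. These levels exceed those of the DMSO enteroendocrine-like cells (36.5, 18.5, 21.0 and 8.76 CPM in the same order of genes), in 1 library each and in different clusters. Esx1, Barx1, Tlx2, Irx5, Six3 and Pax2 were not listed in the DMSO library, so no DMSO cell type with them was seen at this depth.

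The 36 genes that had no count in DMSO stem cells were picked for that, which favours a low share with DMSO. The share of cells for other genes without a DMSO count was not computed. The contrast is therefore not read as particular to the homeobox genes. Cells with any UMI of these 36 genes were frequent with Isx-9. With every cell thinned to 5000 UMIs, they made up 29.3% of 9032 Isx-9 cells (95% exact binomial interval 28.3 to 30.2), against 1.25% of 7904 DMSO cells, 1.14% of 8495 untreated reporter cells and 0.682% of 7622 untreated wild-type cells. Shallower cells were left out, which kept 9032 of 10016 Isx-9 and 7904 of 8969 DMSO cells. Unthinned, the shares were 45.6% of Isx-9 cells and 1.74, 1.73 and 1.22% of DMSO, untreated reporter and untreated wild-type cells. In cluster 3 the thinned share was 47.2% (45.6 to 48.8), in cluster 4 28.01%, in cluster 1 23.5%, in cluster 8 17.8% and in cluster 0 11.3%. Tuft-like cells of the same library had a share of 23.5% (8 of 34 cells, interval 10.7 to 41.2) at a median of 8801 UMIs. Its goblet-like cells (cluster 6) had 1 of 9 and its cells in cluster 13 had 2 of 7. These cells are few and were treated with Isx-9 too, so they cannot gauge free RNA. The part of free RNA was not tested. The intervals cover the counting of cells within 1 library only. Of the 36 genes, 31 were listed in the Isx-9 matrix and 3 in the DMSO matrix. The most such genes seen in 1 thinned Isx-9 cell was 5.

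The other genes of the homeodomain system gave the setting. Of 81 further homeobox genes, 67 were listed in bulk and 48 were tested, of which 31 rose and 5 fell. Over all tested genes, 27.3% rose and 20% fell. Genes with few or no DMSO counts were called in 1 direction only, so the 31 are not read as a share. The Pknox genes of this list are also counted among the cofactors below. Among the 27 with at least 10 counts in both DMSO libraries, 11 rose and 5 fell, against 19.4% and 23.5% of all such genes. Satb1, a chromatin organiser, had 354 and 335 counts with Isx-9 and 0 and 1 with DMSO (ratio 630, 95% interval 113 to 24934), and Lmx1b, a gene of serotonergic neurons, 284 and 251 with Isx-9 and 0 and 1 with DMSO. Tshz3 (at least 93.9-fold) and Gbx2 (at least 53.4-fold) were higher than 0 counts with DMSO. Among the genes that fell were the intestinal genes Cdx1 (log2 fold change -0.67) and Isx (-1.58), and Hopx (-0.32). The 5 that fell were 3 under library size scaling alone and 3 without Isx-9 replicate 2. At 6 days, 45 of 62 of these genes with at least 20 UMIs were at least 2-fold higher and 4 at least 2-fold lower, against 35.9% and 4.93% of all genes.

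Of 30 cofactors that work with homeodomain proteins, 28 were tested, 12 rose and 7 fell, where 27.3% of all tested genes rose and 20% fell. Eya4, a partner of SINE proteins, had 69 and 30 counts with Isx-9 and 0 and 0 with DMSO, at least 30.2-fold higher, and the Meis and Pbx relative Pknox2 62 and 18, at least 24.4-fold higher. Lmo2, a LIM-only protein of blood cells, had 47 and 28 counts with Isx-9 and 0 and 0 with DMSO, and Lmo1 110 and 80 with Isx-9 and 2 and 0 with DMSO. The 7 cofactors that fell had log2 fold changes of -0.42 for Ldb1, the obligate partner of LIM-homeodomain proteins, -0.36 for Ctbp2, -0.30 for Ctbp1, -0.34 for Sin3a, -0.31 for Smad3, -0.25 for Ssbp3 and -0.25 for Tle5. With library size scaling alone 2 cofactors fell, by DESeq2 4, without DMSO replicate 1 or Isx-9 replicate 1 there were 3, and without Isx-9 replicate 2 there were 4. Among the 22 cofactors with at least 10 counts in both DMSO libraries, 6 rose and 7 fell, against 19.4% and 23.5% of all such genes. At 6 days 14 of 28 were at least 2-fold higher and 0 at least 2-fold lower, against 35.9% and 4.93% of all genes.

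Several neighbours on a chromosome were called alike (RefSeq positions, GRCm38.p6). Among all these genes, 41 of 57 tested rose at 6 hours and 57 of 70 compared were higher at 6 days. Like calls are thus frequent whatever the position, and the examples are not read as an effect of it. Six3 and Six2 on chromosome 17, Dlx3 and Dlx4 on chromosome 11, and Irx3, Irx3os and Irx5 on chromosome 8 rose at 6 hours and were at least 2-fold higher at 6 days. The calls of Six3 and Dlx4 at 6 hours were lost without Isx-9 replicate 1 (adjusted p = 0.066 and 0.090, edgeR), and Irx3os, with an adjusted p of 0.086, made no call in the authors' deposited table. Nkx2-4, Nkx2-2os and Pax1 on chromosome 2 were at least 2-fold higher at 6 days, and of these Nkx2-4 alone rose at 6 hours. Nkx6-2 and Msx3 lie 463 kb apart on chromosome 7, and at 6 hours Msx3 rose while Nkx6-2 made no call, with 52 and 57 counts with Isx-9 and 46 and 53 with DMSO. Where genes overlap, as Dlx4 and Dlx4os or Vax2 and Vax2os do, their reads could not be separated by strand.

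Promoter windows were found for 66 of the 94 genes, 83 windows in all. Their median CG count was 18 per window, against 7 over all windows, and their median ratio of observed to expected CG was 0.713, against 0.384. The CG count did not order the genes by their DMSO signal, with medians of 19 for genes with 0 DMSO counts, 20.5 for those between and 19 for those with at least 10 counts in both libraries. The CRE motif TGACGTCA (both strands, as for all motifs) was in 0% of these windows and 1.79% of all windows. TATAAA was in 8.43% against 13.6%, the EGR motifs GCGTGGGCG in 2.41% against 0.612% and GCGGGGGCG in 2.41% against 2.91%, and the E-box CANNTG in 59.0% against 72.3%. GCGTGGGCG and GCGGGGGCG can overlap 1 another in a GC-rich window, and 2.41% of the windows is 2 windows.

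**Figure D5:**
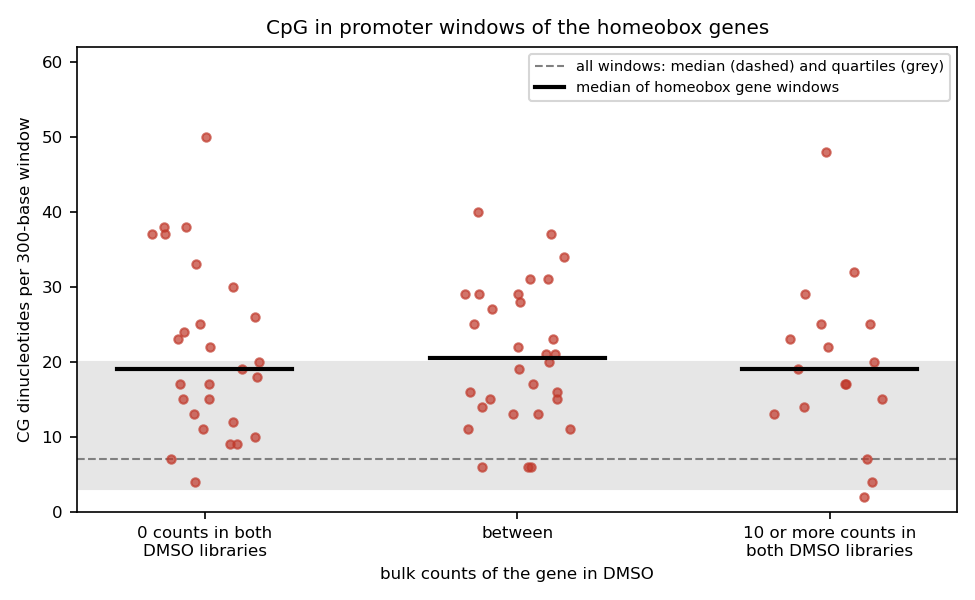
CG dinucleotides in each promoter window (points) of homeobox genes, in 3 groups by bulk counts in DMSO, with black lines at the group medians (19, 20.5 and 19). The dashed line and grey band show the median (7) and quartiles (3 to 20) of all 32851 windows, and the 3 groups cover the same range.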

How the data were processed

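Bulk RNA-seq of sorted stem cells (2 Isx-9 and 2 DMSO libraries) and single-cell RNA-seq of whole organoids (4 libraries) were used, and the ATAC-seq samples were not analysed here. Some genes that enter the counts are not reported here by name or drawn. Per the submitters' processing notes, the tools included Trim Galore 0.6.4, HISAT2, HTSeq 0.12.4, DESeq2 1.24.0, Cell Ranger 3.1.0 and Seurat 3.1.5, with GRCm38. The deposited bulk values are whole-number read counts per gene, and the deposited single-cell values are UMI counts per gene and barcode. The authors' deposited table of fold changes holds a normalized signal, log2 fold changes, their errors, a test score and p-values, from which calls and some adjusted p-values were taken.

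The members and gene lists were chosen with earlier results of these data known. Bulk counts were tested with edgeR 4.0.16 (R 4.3.3; quasi-likelihood, TMM scaling, genes filtered on low counts, Benjamini-Hochberg adjustment over all genes tested, threshold 0.05), after a run on simulated data. The p-values measure the spread between these libraries, which may be technical. Against 0 DMSO counts a fold is a lower bound from a floor of 3 counts over the group.

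Barcodes under 500 genes or 1000 UMIs, or above 20% mitochondrial UMIs, were dropped. The rest were clustered with scanpy 1.11.5 without the homeobox genes and without batch correction, and their UMIs were summed per library and cluster. Ratios have exact 95% intervals, which cover counting error only. Doublets were not removed: the caller marked 8.30% of Isx-9 cells and almost none elsewhere, so it did not work in the other libraries. Pairs of libraries shared 32 to 52 barcodes. The genes named are a fixed set, those with the highest or lowest fold changes, ratios and DMSO levels, and up to 4 with the largest changes in each other list; further genes that complete a count or an example were chosen after their values were seen. The alternatives were DESeq2 1.42.0, other scalings, no filter, each library left out, the replicate block, thinned UMIs, other UMI minimums, doublets left out and the untreated library as control.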

Additional observations from a re-analysis of the deposited data

How the results depend on the processing

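The number of homeobox genes that rose at 6 hours stayed between 37 and 44 under all alternatives run. The number that fell, 1, was 0 with library size scaling alone, also among genes with at least 10 DMSO counts, and 0 to 1 when 1 library was left out. Under library size scaling 3 further homeobox genes fell and 2 cofactors, against 4 cofactors by DESeq2; with 1 library left out these counts were 3 to 5 and 3 to 7. Genes with 0 DMSO counts and at least 1 CPM with Isx-9 numbered 19 at a minimum of 0.5 CPM, 19 when up to 3 DMSO counts were allowed, and 11 to 19 with 1 library left out, the 19 being without DMSO replicate 1, when only 1 library must be at 0. Same-numbered libraries did not deviate together (r = 0.011), and with the replicate block 41 genes rose and 1 fell. Of the single-gene values, 714 kept their direction and side of the threshold, 3 gained the call and 8 lost it. Lhx4 lost it without the filter (adjusted p = 0.051) and without DMSO replicate 2 (0.051), and Dlx4 without Isx-9 replicate 1 (0.090, edgeR for all). At 6 days 57 genes were at least 2-fold higher, 46 after thinning and 41 at a minimum of 50 UMIs. With 1 single-cell library per condition, counting error is the only error shown.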
